A study of Mus musculus with 4 samples.

Results

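The NF-kB genes Rel, Rela, Relb, Nfkb2, Nfkbia, Nfkbib, Nfkbie, Tnfaip3, Ikbkb and Bcl3 were examined in 4 arrays of mouse triple-negative breast tumors. Members were all probe sets whose single gene symbol in the annotation of the array was 1 of these 10 genes, which gave 16 of the 45037 probe sets tested. Tumors were of 4T1Ch9, a cherry-tagged mouse mammary carcinoma line of Balb/c background, implanted as 50000 cells in the mammary fat pad and left to establish for 10 days. For the next 7 days the mice received vehicle or trametinib at 1 mg/kg daily by oral gavage, an inhibitor of the kinases MEK1 and MEK2 (MEKi), and the whole tumor was then taken for bulk RNA. There were 2 arrays labelled MEKi and 2 labelled vehicle, and both groups carried the same tumor line. The labels and methods do not say whether 1 mouse or several gave the arrays of a label, so a p-value reflects just how far these arrays differ, which may be technical spread. Values are log2 expression from robust multi-array averaging (RMA), where 1 unit is a doubling.

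NF-kB is a family of transcription factor dimers built from subunits that share a DNA-binding Rel homology region. In resting cells the dimers are held in the cytoplasm by IkB proteins, and receptors of the TNF, Toll-like and antigen receptor families switch on the IkB kinase complex, which marks IkB for destruction and frees the dimers. Several genes for the subunits and inhibitors are themselves targets of the pathway, which gives it built-in feedback. Lymphocytes and myeloid cells depend on it for activation and survival, and tumor cells can also use it. The comparison by label asks which tumor transcripts change with MEKi. From these tumors the study reported NF-kB pathway genes as enriched after MEKi, using pathway and gene set analyses that were not run here. It then examined NF-kB, among other pathways, in T cells.

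Before the results, the arrays did not sort by label. Pearson's r over 45037 probe sets, not independent of each other, reached 0.992 for MEKi 1 with vehicle 2 and 0.978 for MEKi 2 with vehicle 1. Within the MEKi label r was 0.927 and within the vehicle label 0.959. As a check of the labels, the median of 10 MAPK output genes, which ERK signaling induces, was 8.96 and 8.22 in vehicle 1 and 2, and 6.93 and 9.55 in MEKi 1 and 2. It was therefore lowest in one array labelled MEKi and highest in the other. All 10 read lower in both MEKi 1 and vehicle 2 than in the other arrays, an order found in 30.0% of all genes. Those arrays also had the higher lymphocyte markers given below. This check therefore cannot tell a wrong label from a different mix of cells. These values do not settle which tumors had been treated, so no label was changed, every array is named by its label only, and no direction is read as an effect of the drug. The median of 11 reference genes lay between 12.52 and 12.86, and in each array it was the value of Ywhaz.

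Each of the 10 NF-kB genes had a higher value in MEKi 1 than in MEKi 2, where 47.0% of all genes did. All 10 also had a lower value in vehicle 1 than in vehicle 2, whereas 48.1% of all genes read higher in vehicle 1. The differences ran from 0.41 to 2.02 log2 units within the MEKi label (median 1.02) and from 0.19 to 1.96 within the vehicle label (median 0.52). The median difference between the labels was only −0.09, where that of all 17097 named genes was 0.01. By label, limma called 0 of the 16 member probe sets, beside 0% of all probe sets (0 of 45037). The study reported genes altered between MEKi and vehicle tumors at the same limits on p, fold change and false discovery rate (here the adjusted p). Why the calls differ was not tested. At an unadjusted p under 0.05 there were 0 member probe sets and 0.901% of all. For 9 of the 10 genes both differences between arrays of 1 label were larger than the difference between the labels, as for 58.0% of all genes.

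**Figure D1:**
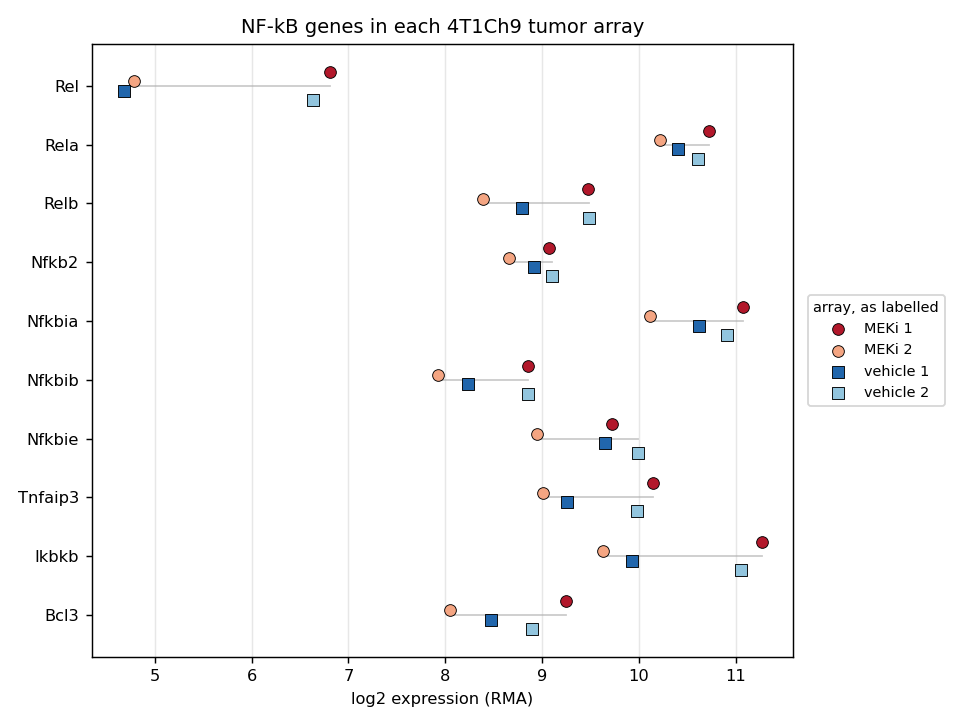
Log2 expression (RMA, horizontal axis) of the 10 NF-kB genes, with circles for MEKi and squares for vehicle, as labelled, set slightly apart in height. The brightest probe set stands for a gene. For Rel, MEKi 1 (6.81) and vehicle 2 (6.64) lie apart from MEKi 2 (4.79) and vehicle 1 (4.68).

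Each of the 10 genes read higher in both MEKi 1 and vehicle 2 than in the other arrays, an order found in 29.5% of all genes. Separately, as several such genes are targets of the pathway, the stretches before the starts are shown for 5 of them. The κB consensus motif, the sequence that NF-kB dimers bind, was searched on both strands of the 250 bases before each RefSeq start, and overlapping matches were joined. Of the 10 genes 8 were in the table of starts, and 5 of these 8 held a match before at least 1 start, where 8.23% of all 27025 genes in the table did. The 130 bases before the start are printed below from 5′ to 3′ for those 5 genes, with κB matches in capitals.
Rel: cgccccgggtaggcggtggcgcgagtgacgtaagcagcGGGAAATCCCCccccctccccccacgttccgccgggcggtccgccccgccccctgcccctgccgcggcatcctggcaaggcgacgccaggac
Nfkb2: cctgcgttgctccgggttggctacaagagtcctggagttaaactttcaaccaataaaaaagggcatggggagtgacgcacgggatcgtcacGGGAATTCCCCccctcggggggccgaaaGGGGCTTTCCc
Nfkbia: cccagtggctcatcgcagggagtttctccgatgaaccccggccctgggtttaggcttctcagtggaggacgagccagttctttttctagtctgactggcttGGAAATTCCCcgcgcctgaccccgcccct
Nfkbie: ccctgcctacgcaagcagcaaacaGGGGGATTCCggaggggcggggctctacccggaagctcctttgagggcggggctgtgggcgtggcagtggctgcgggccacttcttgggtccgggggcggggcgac
Tnfaip3: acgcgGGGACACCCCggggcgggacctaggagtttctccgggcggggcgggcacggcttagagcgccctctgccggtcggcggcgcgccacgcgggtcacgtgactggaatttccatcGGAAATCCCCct
The sequences are from RefSeq on the GRCm38.p6 build, at chr11:23770970-23771099 on the minus strand (Rel), chr19:46304607-46304736 on the plus strand (Nfkb2), chr12:55492648-55492777 on the minus strand (Nfkbia), chr17:45555570-45555699 on the plus strand (Nfkbie) and chr10:19015411-19015540 on the minus strand (Tnfaip3). In Nfkbia the match on the other strand reads GGGAATTTCC and begins 29 bases before the start. In Rel a run of 11 bases, 92 bases before the start, holds overlapping matches on both strands. Nfkb2 has 3 listed starts and Tnfaip3 has 2, and for each the start nearest to a match is shown. Rela, Nfkbib and Bcl3 were also searched, without a match in these 250 bases, and had the same high arrays. The genes are a chosen family with pathway targets in it, so a share above that of all genes could be foreseen. A match describes the letters only, and binding was not measured. Whether the matches bear on the order of the arrays was not tested.

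Rel encodes c-Rel, the subunit most abundant in lymphocytes, and it had the widest range of the 10 genes, 2.13 log2 units. Its 1 probe set read 4.68 and 6.64 in vehicle 1 and 2, and 6.81 and 4.79 in MEKi 1 and 2. Each label thus held 1 high and 1 low array, and the groups overlapped fully. By label the log2 fold change of Rel was 0.14 (SE 1.04, 95% interval −2.83 to 3.11, adjusted p = 1, limma), with a mean of 5.80 ± 1.43 (SD, n = 2) for MEKi and 5.66 ± 1.39 (SD, n = 2) for vehicle. Rela, which encodes the widely expressed p65 subunit, read 10.40 and 10.61 in vehicle 1 and 2, and 10.73 and 10.21 in MEKi 1 and 2. Its range was 0.51, and its log2 fold change by label was −0.03 (SE 0.26, adjusted p = 1).

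The subunits of the alternative pathway, in which RelB pairs with the processed product of Nfkb2, had the same low array. Relb read 8.79 and 9.49 in vehicle 1 and 2, and 9.47 and 8.39 in MEKi 1 and 2, so MEKi 1 and vehicle 2 differed by 0.02 and MEKi 2 lay 1.10 below the highest. Nfkb2 read 8.91 and 9.10 in vehicle 1 and 2, and 9.07 and 8.66 in MEKi 1 and 2. Its range of 0.45 was the narrowest of the 10. By label the log2 fold change was −0.21 for Relb (SE 0.50, adjusted p = 1) and −0.14 for Nfkb2 (SE 0.23, adjusted p = 1).

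The genes of the IkB inhibitors were also lowest in the array labelled MEKi 2. Nfkbia encodes IκBα, which NF-kB induces to end its own signal, and it read 10.62 and 10.91 in vehicle 1 and 2, and 11.07 and 10.11 in MEKi 1 and 2. Both vehicle arrays lay between the arrays labelled MEKi. Nfkbib, which encodes IκBβ, read 8.23 and 8.85 in vehicle 1 and 2, and 8.85 and 7.92 in MEKi 1 and 2. A further Nfkbib probe set read between 3.74 and 4.04, close to the 25th percentiles of the arrays (3.85 to 3.88), and so carries little signal. Nfkbie encodes IκBε, and its arrays were spaced differently. It read 9.65 and 9.99 in vehicle 1 and 2, and 9.72 and 8.95 in MEKi 1 and 2, so that vehicle 1 lay near MEKi 1 and MEKi 2 stood alone at the low end. The further Nfkbie probe set read 9.03 and 9.40 in vehicle 1 and 2, and 9.35 and 8.55 in MEKi 1 and 2. Of the 10 genes Nfkbie had the largest difference between the labels, a log2 fold change of −0.49 (SE 0.35, 95% interval −1.47 to 0.50, adjusted p = 1), and its further probe set gave −0.26 (SE 0.36). The log2 fold change was −0.17 (SE 0.40) for Nfkbia and −0.16 (SE 0.44) for Nfkbib, with an adjusted p of 1 for each. Neither Nfkbia nor Nfkbib moved between the labels by more than the spread within them.

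Ikbkb, which encodes IKKβ, the kinase that marks IkB for destruction in the classical pathway, had the second widest range. Its brightest probe set read 9.93 and 11.06 in vehicle 1 and 2, and 11.27 and 9.63 in MEKi 1 and 2, a range of 1.64. The other 3 Ikbkb probe sets were dimmer, and 2 of them kept this order, with ranges of 1.12 and 0.56. For the last one vehicle 1 was lowest (5.32) and vehicle 2 highest (5.87). By label the 4 probe sets gave log2 fold changes between −0.04 and 0.18, and for the brightest the SE was 0.74 (95% interval −2.17 to 2.08, adjusted p = 1). As the probe sets of 1 gene share their samples, they are not replicates of each other.

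Tnfaip3 encodes A20, an enzyme that edits ubiquitin chains and shuts off signaling upstream of IKK. It read 9.25 and 9.98 in vehicle 1 and 2, and 10.15 and 9.01 in MEKi 1 and 2. Its dim second probe set ran otherwise, with 4.83 in MEKi 1 and 5.19 in vehicle 2 as the lowest and highest readings, over a range of only 0.35. Bcl3, an atypical IkB protein of the nucleus that acts as a co-regulator, read 8.47 and 8.89 in vehicle 1 and 2, and 9.25 and 8.05 in MEKi 1 and 2. Among the brightest probe sets of the 10 genes, that of Bcl3 had MEKi 1 furthest above vehicle 2, by 0.36. A dimmer Ikbkb probe set had it higher by 0.43. By label the log2 fold change was −0.04 for Tnfaip3 (SE 0.52, adjusted p = 1) and −0.03 for Bcl3 (SE 0.49, adjusted p = 1).

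**Figure D2:**
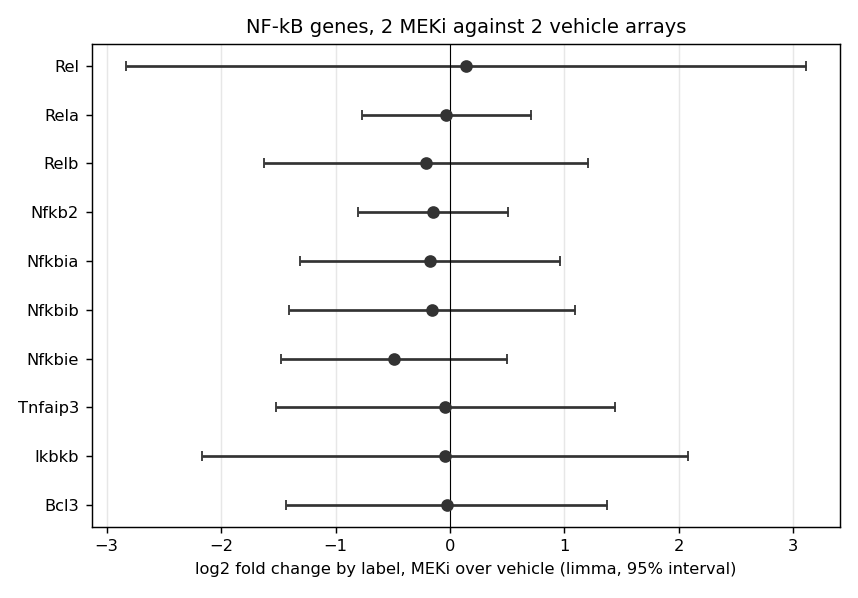
Log2 fold change of each NF-kB gene between the 2 arrays labelled MEKi and the 2 labelled vehicle (horizontal axis), with bars for the 95% interval from limma. All 10 intervals span 0, and that of Rel is the widest, from −2.83 to 3.11.

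In the fit by label the fold change was below 0 for 9 of the 10 genes, beside 47.8% of all genes, and Rel alone lay above 0 (0.14, or −0.0046 with each array centred on reference genes, which moves all probe sets by −0.14). This count rested on single arrays. The median of −0.09 became −0.64 without the array labelled MEKi 1, 0.32 without MEKi 2, −0.44 without vehicle 1 and 0.15 without vehicle 2. Both arrays labelled MEKi lay above both vehicle arrays in 0 of 16 member probe sets, against 12.1% of all, and below them in 0 of 16, against 9.86% of all. With 2 arrays against 2, an exact permutation test of 1 gene cannot give a two-sided p below 0.333.

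Set against each other 1 by 1, with no replicate and no test, the arrays differed most between MEKi 1 and MEKi 2. In that pair 10 of 16 member probe sets were more than 1.5-fold higher in MEKi 1, against 15.1% of all probe sets, and 0 were more than 1.5-fold lower. Of MEKi 2 against vehicle 2, 10 of 16 were more than 1.5-fold lower in MEKi 2, against 13.5% of all. The array labelled MEKi 1 exceeded vehicle 1 by this fold in 7 of 16 (11.6% of all), and vehicle 1 was below vehicle 2 by this fold in 6 of 16 (9.83% of all), with 0 of 16 higher (12.3% of all). Pairs that share an array are not independent of each other.

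The pairs of arrays that were most alike across all genes crossed the labels, and the NF-kB genes differed less in them. Between MEKi 1 and vehicle 2, 0 of 16 member probe sets differed by more than 1.5-fold (3.22% of all were higher and 3.15% lower). There 7 of 10 genes read higher in MEKi 1, where 45.0% of all genes did. Their differences had a median of 0.14 over the 10 genes and ran from −0.27 (Nfkbie) to 0.36 (Bcl3). Between MEKi 2 and vehicle 1, 1 of 16 was more than 1.5-fold lower in MEKi 2 (8.85% of all) and 0 were higher (6.3% of all). The 1 probe set was the brightest of Nfkbie, at −0.70. In this pair 9 of 10 genes read lower in MEKi 2, whereas 55.9% of all genes read higher in MEKi 2. The median of the 10 genes was −0.30, and Rel was the exception at 0.11. The array labelled MEKi was thus mostly the higher in one of these pairs and mostly the lower in the other.

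**Figure D3:**
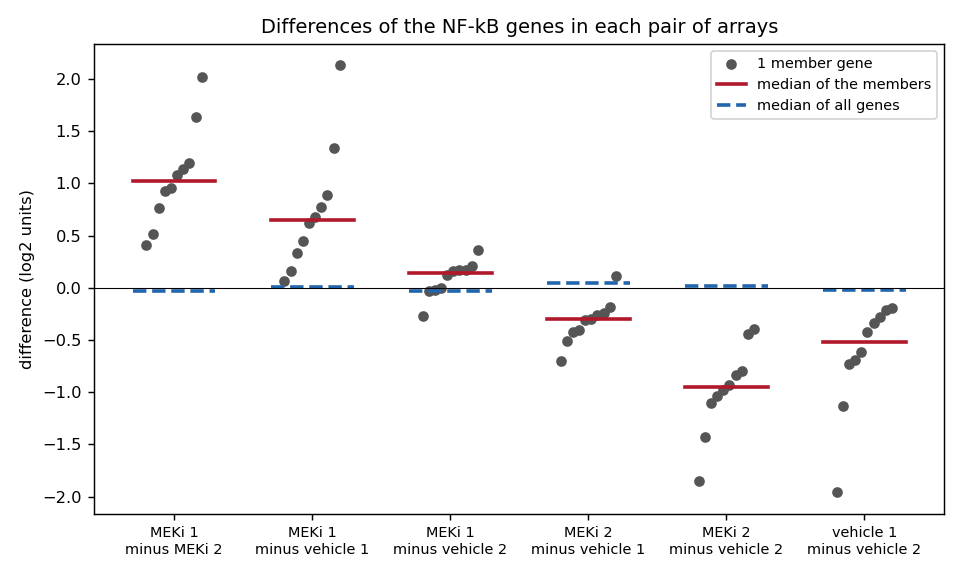
Difference in log2 expression (vertical axis, log2 units) for each pair of arrays, 1 point per NF-kB gene, with solid lines for the median of the 10 genes and dashed lines for the median of all 17097 genes. The medians of the 10 genes are 1.02 for MEKi 1 minus MEKi 2 and −0.95 for MEKi 2 minus vehicle 2, whereas those of all genes stay near 0.

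Markers of lymphocytes moved with the NF-kB genes across the arrays. In bulk tissue, fewer cells of a type and less RNA per cell cannot be told apart. The median of 13 B cell markers (of 14 listed) was 4.19 and 9.51 in vehicle 1 and 2, and 10.02 and 4.17 in MEKi 1 and 2, and their summed level, on the log2 scale, was 9.73 and 14.48 in vehicle 1 and 2, and 14.92 and 9.68 in MEKi 1 and 2. Of these 13, 1 lay below the 25th percentile in MEKi 2, 2 did so in vehicle 1 and 0 in the other two. The median of 13 T cell markers (of 15) was 6.01 and 9.88 in vehicle 1 and 2, and 9.88 and 5.10 in MEKi 1 and 2, with summed levels of 10.05 and 13.90 in vehicle 1 and 2, and 13.93 and 9.09 in MEKi 1 and 2, and 0 of them lay below the 25th percentile in any array. The lymph node stroma and high endothelial venule list had 8 markers measured (of 9). Their median was 4.15 and 9.16 in vehicle 1 and 2, and 8.83 and 3.83 in MEKi 1 and 2. Below the 25th percentile lay 5 in MEKi 2, 3 in vehicle 1 and 0 in the other arrays. Summed levels were 11.74 and 14.13 in vehicle 1 and 2, and 14.26 and 12.57 in MEKi 1 and 2. Clu, named for its part in the sum, alone read 11.66 in vehicle 1 and 12.55 in MEKi 2. The arrays with high NF-kB genes were therefore those with high lymphoid markers, and the part of these cells in the NF-kB values was not tested. For MEKi 2 minus vehicle 1, both of low lymphoid level, the median difference of the NF-kB genes was the −0.30 given above. The summed T cell level was not equal there either, at 9.09 in MEKi 2 and 10.05 in vehicle 1. With 1 array on each side, how these differences relate was not tested.

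Markers of other cells ran differently. The median of 13 macrophage and monocyte markers was 10.82 and 10.07 in vehicle 1 and 2, and 9.56 and 10.41 in MEKi 1 and 2, with MEKi 1 lowest, and the summed levels were 15.39 and 14.59 in vehicle 1 and 2, and 14.09 and 14.67 in MEKi 1 and 2. The median of 11 tumor epithelial markers was 8.18 and 8.25 in vehicle 1 and 2, and 7.89 and 6.54 in MEKi 1 and 2, but their summed levels were 14.10 and 13.19 in vehicle 1 and 2, and 12.21 and 13.11 in MEKi 1 and 2. The median was thus lowest in MEKi 2 and the summed level in MEKi 1. Krt8 and Krt18, the first 2 of the list and the paired keratins of simple epithelium, were lowest in MEKi 1, at 10.54 and 10.43. In MEKi 2 they read 12.11 and 11.87. Other markers ran the other way, and 6 of the 11 were lowest in MEKi 2. Of these 6, Krt19, named for its wide range, read 9.36 and 9.42 in vehicle 1 and 2, and 8.91 and 4.52 in MEKi 1 and 2. Of the 7 neutrophil markers (of 8), 6 had a log2 fold change by label above 0, beside 52.2% of all genes. An unadjusted p under 0.05 was found for 3, with 0 called by limma. S100a8, a calcium-binding protein gene of neutrophils, read 6.17 and 7.70 in vehicle 1 and 2, and 9.99 and 11.10 in MEKi 1 and 2 (log2 fold change 3.61, SE 0.71, adjusted p = 1). Its partner S100a9 read 7.09 and 7.92 in vehicle 1 and 2, and 10.29 and 11.87 in MEKi 1 and 2 (3.58, SE 0.67, adjusted p = 1). Both arrays labelled MEKi lay above both vehicle arrays for S100a8 and S100a9, an order found in 12.1% of all probe sets and in 0 of the 16 of the NF-kB genes. The list's summed level was 12.68 and 11.28 in vehicle 1 and 2, and 11.80 and 13.55 in MEKi 1 and 2, so as a sum it overlapped. In vehicle 1 the brightest of the list were Lcn2 (11.88) and Mmp9 (11.23), named for their part in the sum.

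**Figure D4:**
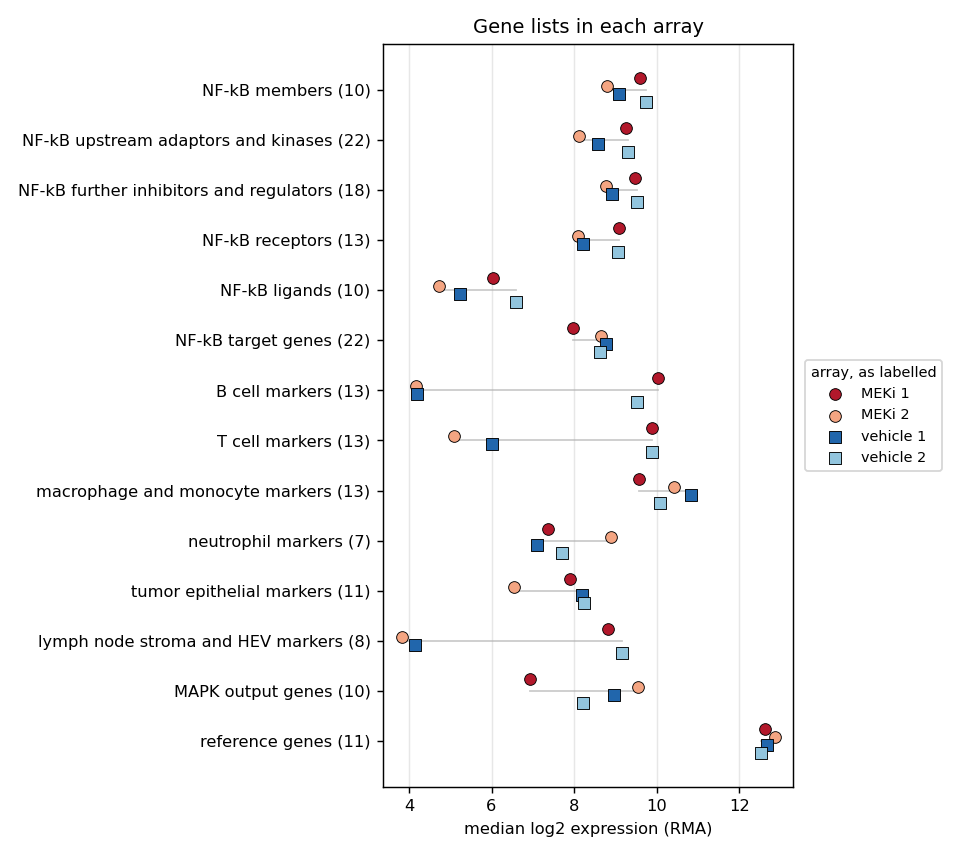
Medians of the 10 NF-kB genes and of the other lists per array (log2 expression, RMA, horizontal axis). Parentheses hold how many genes were measured, circles are MEKi and squares vehicle, as labelled. HEV stands for high endothelial venules. B cell markers sit at 10.02 (MEKi 1) and 9.51 (vehicle 2) but at 4.17 (MEKi 2) and 4.19 (vehicle 1), and the NF-kB genes span 8.80 to 9.74.

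The wider pathway was taken from lists of receptors, ligands, adaptors, regulators and targets, in which limma called 0 genes in either direction by label, with 0 also at an unadjusted p under 0.05. Of 27 listed adaptors and kinases 22 were measured. Of these 22, 18 read higher in MEKi 1 than in MEKi 2 (47.0% of all genes), and 19 higher in MEKi 1 than in vehicle 1 (50.6% of all genes). MEKi 1 and vehicle 2 both exceeded the other arrays in 12 of 22 and both lay below in 3, against 29.5% and 30.0% of all genes. The median log2 fold change of the adaptors and kinases by label was −0.06. Prkcq, which encodes the protein kinase C isoform that links the T-cell receptor to NF-kB, ranged most and read 6.38 and 10.16 in vehicle 1 and 2, and 10.51 and 5.36 in MEKi 1 and 2. Malt1, the protease of the complex downstream of antigen receptors, read 6.97 and 8.56 in vehicle 1 and 2, and 8.46 and 6.21 in MEKi 1 and 2. Ikbke and Traf1 had the lowest log2 fold changes of the list, −0.52 (SE 0.87, adjusted p = 1) and −0.51 (SE 0.38, adjusted p = 1). Traf6 and Tab1 had the highest, 0.45 (SE 0.17, adjusted p = 1) and 0.32 (SE 0.25, adjusted p = 1). Traf6, the ubiquitin ligase of Toll-like and interleukin-1 receptor signaling, was the one of these whose groups did not overlap, with 6.10 and 6.09 for MEKi and 5.73 and 5.56 for vehicle, an order found in 12.1% of all probe sets.

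Of 18 further inhibitors and regulators, 11 read higher in MEKi 1 than in vehicle 1, a share (61.1%) not far from the 50.6% of all genes. Their median log2 fold change by label was −0.06. Nlrc3, a negative regulator expressed in T cells, read 5.29 and 8.56 in vehicle 1 and 2, and 8.82 and 4.24 in MEKi 1 and 2. Nfkbid, which encodes the atypical inhibitor IκBNS, read 5.66 and 8.01 in vehicle 1 and 2, and 8.50 and 5.23 in MEKi 1 and 2. Pdlim2, which promotes the degradation of p65, ran the other way, with 10.62 in MEKi 2 against 9.46 to 9.70 elsewhere, and the highest log2 fold change of the list (0.46, SE 0.46, adjusted p = 1). Btrc, the receptor of the ligase that ubiquitinates phosphorylated IkB, was higher in MEKi 2 (6.69) and vehicle 1 (6.51) than in MEKi 1 (5.68) and vehicle 2 (5.27). Zc3h12a, an endonuclease that degrades inflammatory transcripts, had the lowest log2 fold change, −0.51 (SE 0.38, adjusted p = 1).

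The 13 receptors split. MEKi 1 and vehicle 2 both exceeded the other arrays in 5 of them and both lay below in 8, against 29.5% and 30.0% of all genes. The widest ranges belonged to genes known from lymphocytes. Tnfrsf13c, the BAFF receptor of B cells and a strong inducer of the alternative pathway, read 4.93 and 10.98 in vehicle 1 and 2, and 11.40 and 4.71 in MEKi 1 and 2, and Cd27 read 4.85 and 9.29 in vehicle 1 and 2, and 9.30 and 3.88 in MEKi 1 and 2. Cd40 read 7.73 and 9.08 in vehicle 1 and 2, and 9.59 and 6.08 in MEKi 1 and 2. Il1r1, the interleukin-1 receptor, was instead highest in MEKi 2 (11.10) and lowest in MEKi 1 (9.23), and the TNF receptor genes Tnfrsf1a and Tnfrsf1b, the lymphotoxin β receptor gene Ltbr and the Toll-like receptor genes Tlr2 and Tlr4, named after their values were seen, were also among the 8. Tnfrsf4, which encodes OX-40, had the lowest log2 fold change by label (−0.65, SE 1.19, adjusted p = 1) and Il1r1 the highest (0.46, SE 0.75, adjusted p = 1), while Tnfrsf11a, the receptor RANK, gave 0.27 (SE 0.24). The receptors had a median log2 fold change of −0.14.

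Of 10 ligands, 8 read higher in MEKi 1 than in vehicle 1 (50.6% of all genes), and 6 higher in MEKi 1 than in MEKi 2 (47.0% of all genes). MEKi 1 and vehicle 2 both exceeded the other arrays in 6 of 10 and both lay below in 2, against 29.5% and 30.0% of all genes. Ltb, a ligand of the lymphotoxin β receptor, ranged most, with 8.26 and 11.79 in vehicle 1 and 2, and 11.75 and 7.16 in MEKi 1 and 2. Tnfsf13b, which encodes BAFF, read 5.54 and 8.15 in vehicle 1 and 2, and 8.18 and 4.43 in MEKi 1 and 2. Tnfsf11, which encodes the ligand of RANK and is also among the lymph node markers, read 4.35 and 6.58 in vehicle 1 and 2, and 6.13 and 3.67 in MEKi 1 and 2. Il1b was the ligand with the highest log2 fold change (0.43, SE 0.46, adjusted p = 1) and read 9.67 in MEKi 2 against 8.49 to 8.86 elsewhere, and Tnfsf4 followed with 0.17 (SE 0.56). The median log2 fold change of the ligands was −0.09.

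The target genes were mixed. MEKi 1 and vehicle 2 both exceeded the other arrays in 6 of 22 (Ccl5, Ccl20, Icam1, Il6, Cd83 and Gadd45b, named for this order), a share of 27.3% beside 29.5% of all genes, and both lay below in 10 of 22 (30.0% of all genes). Cd83, a marker of activated antigen-presenting cells, read 9.02 and 11.44 in vehicle 1 and 2, and 11.79 and 8.58 in MEKi 1 and 2. Of the 22 targets, all outside the 10 genes, 6 read higher in MEKi 1 than in vehicle 1 (50.6% of all genes). Higher in MEKi 1 than in MEKi 2 were 10 of 22 (47.0% of all genes), and the median log2 fold change of the targets by label was −0.12. The neutrophil-attracting chemokine gene Cxcl1 read 7.76 and 5.62 in vehicle 1 and 2, and 5.70 and 9.17 in MEKi 1 and 2, and Cxcl2 read 4.90 and 4.20 in vehicle 1 and 2, and 3.89 and 7.14 in MEKi 1 and 2. Ptgs2, which encodes cyclooxygenase-2, read 8.34 and 6.41 in vehicle 1 and 2, and 6.26 and 9.88 in MEKi 1 and 2. These 3 were highest in the array where the NF-kB genes were mostly lowest. Mmp9, a gelatinase also listed with the neutrophil markers, read 11.23 and 9.39 in vehicle 1 and 2, and 7.37 and 8.89 in MEKi 1 and 2, with the lowest log2 fold change of the list (−2.18, SE 0.89, adjusted p = 1). Ccl2, a chemokine gene for monocytes, gave −1.09 (SE 0.68, adjusted p = 1). Both arrays labelled MEKi lay below both vehicle arrays for Mmp9, an order found in 9.86% of all probe sets, while for Ccl2 the groups overlapped (7.59 and 8.80 for MEKi, 9.95 and 8.62 for vehicle).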

How the data were processed

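Tumor RNA was hybridised to 4 Affymetrix MG-430PM arrays (2 labelled MEKi, 2 labelled vehicle). The values that the authors deposited are log2 expression, with 1 per probe set in every array. Per the methods and labels they come from RMA with quantile normalization in the AFFY package of R, and the versions of RMA and AFFY are not given in the sources used here. Scanner files were not used here. Of 45141 probe sets, 104 controls were left out. Of the rest, 28898 had 1 gene symbol in the platform annotation, 551 had several and 15588 were unnamed here. Entrez identifiers matched 28689 to RefSeq genes. The brightest probe set over all arrays stood for a gene. Limma 3.58.1 in R 4.3.3 (lmFit, eBayes) compared the labels, two-sided, with Benjamini-Hochberg adjustment over all 45037 probe sets. Calls were made where the fold change exceeded 1.5 with p under 0.05 and adjusted p under 0.1. The fit was also run on simulated data with independent noise, and how many set changes it recovered is not reported here.

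The members and gene lists were chosen with earlier results of these data known. Named genes were all members, in each pathway list the 2 highest and 2 lowest log2 fold changes and the 2 widest ranges, the first 2 of the marker and control lists where a value is given, and the 3 genes nearest to each member ranging over more than 1 log2 unit. Same-numbered arrays are not stated to be pairs. Alternatives were another adjusted p, an intensity trend, no moderation, a filter on dim probe sets, other centring and normalization, a replicate block, each array left out, and 1 value per gene. Tables and figures were made with Python 3.11.15, pandas 2.3.3, numpy 2.4.6 and matplotlib 3.10.9.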

Additional observations from a re-analysis of the deposited data

How the results depend on the processing

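Limma called 0 member probe sets and 0 of all probe sets under every alternative run (between 80 and 2027 of all probe sets at an unadjusted p under 0.05). The median of the 10 genes by label was −0.09 as reported, −0.24 after centring on reference genes, which moved all probe sets by −0.14, −0.10 after quantile normalization, and −0.07 when the probe sets of each gene were averaged. The centring used the median of the 11 reference genes, which in each array was Ywhaz, so it rests on 1 gene. By label Ywhaz had a log2 fold change of 0.14, where the median of the reference genes was −0.02. Leaving out 1 array at a time gave a median from −0.64 to 0.32, and log2 fold changes from −0.87 to 1.15 for Rel, −0.29 to 0.23 for Rela, −0.75 to 0.33 for Relb, −0.35 to 0.061 for Nfkb2, −0.65 to 0.31 for Nfkbia, −0.62 to 0.31 for Nfkbib, −0.87 to −0.10 for Nfkbie, −0.61 to 0.53 for Tnfaip3, −0.86 to 0.77 for Ikbkb and −0.63 to 0.57 for Bcl3. Nfkbie thus kept its sign without any 1 array. Rel turned to −0.0046 after centring, because that setting moves all probe sets alike by more than the 0.14 of Rel. Ikbkb turned to 0.034 with the mean of its probe sets, whose own log2 fold changes lay on both sides of 0. Same-numbered arrays deviated in opposite directions (r = −0.764 over 45037 probe sets). With the replicate block 0 probe sets were called and the median was −0.09. With crossed numbers as a block, chosen after seeing the data, 0 probe sets and 0 members were called. The number of arrays, and values near the 25th percentile, limit these results.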

Other observations

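For the 6 NF-kB genes that ranged over more than 1 log2 unit, the genes with the most similar profile were sought among 17087 others, by the root mean square distance after each gene was centred on its mean over the 4 arrays. Nearest to Rel were Stk10 (distance 0.039 log2 units), Cbx7 (0.040) and Prss12 (0.049). Stk10, which encodes a serine/threonine kinase of lymphocytes, read 9.03 and 11.02 in vehicle 1 and 2, and 11.09 and 9.10 in MEKi 1 and 2. Nearest to Tnfaip3 was Elf1 (0.0085), which encodes an ETS transcription factor and read 9.68 and 10.42 in vehicle 1 and 2, and 10.55 and 9.43 in MEKi 1 and 2, followed by Helb and Ube4a. Dennd4b (0.020), Pxk and Crlf3 lay nearest to Ikbkb. Rnf181 (0.021), Rbfa and Dffa lay nearest to Relb, and Gata6 (0.032), Usp48 (0.033) and Trbv13-2 (0.046) lay nearest to Bcl3. The profile of Nfkbie, with MEKi 2 alone at the low end, was closest to those of Nadsyn1 (0.014), Ifit3 (0.027), an interferon-induced gene, and Entpd1 (0.033). With 4 arrays and 17087 genes such closeness is a description of these arrays only.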
